A study of Mus musculus with 6 samples.

Results

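The tumour suppressor p53 and 9 genes known as its transcriptional targets were followed in mouse liver in which a constitutively active form of IRF3, a transcription factor of the antiviral response, had been switched on. The set holds Trp53, which encodes p53, with Cdkn1a, Mdm2, Ccng1, Eda2r, Perp, Phlda3, Zmat3, Aen and Trp53inp1. These 10 genes were taken by symbol from the 20894 gene rows of the table, and every one of them had a row. All 6 samples came from mice with the Irf3 LSL-2D allele, which expresses the 2D form once Cre has removed a stop cassette. The IRF3-2D group (3 liver samples) received AAV8-TBG-Cre and the Ctrl group (3 liver samples) AAV8-TBG-GFP, adeno-associated viruses whose TBG promoter is active in hepatocytes. Both groups were given ethanol at 3 g/kg into the peritoneum and were sampled 2 h later. The labels used here state no age. No group received Cre without the allele and none went without ethanol, so the effects of active IRF3, of Cre and of GFP cannot be told apart.

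The p53 protein binds DNA as a tetramer and switches on genes that halt the cell cycle, repair DNA or kill the cell. Its amount is set mainly by protein stability: Mdm2 marks p53 for degradation and is itself a p53 target, which closes a feedback loop. In liver, p53 and the p21 protein made from Cdkn1a are known for restraining hepatocyte division after injury.

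Most of the tested targets were higher in IRF3-2D liver, and Perp was lower. Of the 10 genes, 9 passed the filter on low counts. Cdkn1a, Ccng1, Eda2r, Phlda3, Aen and Trp53inp1 rose between 1.93-fold and 10.4-fold, and Perp fell 3.34-fold. Trp53 itself and Mdm2 did not pass the test. A gene is called here when edgeR's quasi-likelihood test gave it a Benjamini-Hochberg adjusted p under 0.05 over all 10802 tested genes. In that fit 26.3% of all tested genes were called, 13.2% higher and 13.1% lower, against 7 of the 9 tested members, 6 higher and 1 lower. The median log2 fold change was 1.08 over the 9 tested members and 0.03 over all tested genes. The groups did not overlap in 8 of the 9, where 44.9% of all tested genes had no overlap. The members were chosen with earlier results of these data known, so these contrasts with all tested genes are descriptive and not independent evidence. Levels are counts scaled to a library of 1000000 (CPM) with edgeR's TMM factors, which adjust for the make-up of each library, unless another scale is named.

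The libraries held 12054096 to 14830629 counts. Irf3, the gene carried by the allele, stood at 42.6, 46.4 and 60.3 CPM in Ctrl and 117.5, 106.3 and 136.6 CPM in IRF3-2D liver, so each IRF3-2D library was above each Ctrl library (2.41-fold, adjusted p = 0.00152). The labels do not say that the replicates are separate mice, and each p-value therefore rests on sample-to-sample spread that could be technical. In whole liver, fewer cells of a type and less RNA per cell cannot be told apart.

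Cdkn1a (ENSMUSG00000023067, chromosome 17, 29090976 to 29100727, plus strand, GENCODE M21 on GRCm38) encodes p21, the inhibitor of cyclin-dependent kinases through which p53 stops the cell cycle. It stood at 110.6, 74.4 and 68.2 CPM in Ctrl and at 192.9, 186.4 and 162.5 CPM in IRF3-2D liver. Ctrl replicate 1 was the highest of its group, yet remained below every IRF3-2D library. The rise was 2.14-fold (log2 fold change 1.10, SE 0.19, adjusted p = 0.00592). Ccng1 (ENSMUSG00000020326, chromosome 11, 40748552 to 40755311, minus strand) encodes cyclin G1, which binds protein phosphatase 2A and acts on Mdm2. Its Ctrl libraries lay close together, at 50.7, 52.7 and 53.8 CPM, and the IRF3-2D libraries at 110.5, 92.6 and 99.6 CPM. That is a 1.93-fold rise (log2 fold change 0.95, SE 0.09, adjusted p = 0.000536), the member rise with the smallest standard error.

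A start-site window of each of these genes holds a close match to the p53 consensus, the closest among the members with a window. These windows are shown here. RefSeq windows on GRCm38.p6, from 250 bases before a transcription start to 50 bases after it, were given for 7 of the 10 genes (9 windows) and not for Perp, Zmat3 and Trp53inp1. The p53 full site, 20 bases made of 2 consensus units of 10 bases without a spacer, was searched in each window. It reads the same on both strands, so a match counts for either. In the sequences printed next, bases -250 to -31 from the start are given 5′ to 3′ on the gene's strand, with the best-matching full site in capitals.
Cdkn1a, chr17:29090729-29090948, plus strand: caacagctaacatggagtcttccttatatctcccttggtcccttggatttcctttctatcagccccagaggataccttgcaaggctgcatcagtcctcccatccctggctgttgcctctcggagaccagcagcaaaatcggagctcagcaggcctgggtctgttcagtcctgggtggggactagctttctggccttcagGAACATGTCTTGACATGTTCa
Ccng1, chr11:40755317-40755536, minus strand: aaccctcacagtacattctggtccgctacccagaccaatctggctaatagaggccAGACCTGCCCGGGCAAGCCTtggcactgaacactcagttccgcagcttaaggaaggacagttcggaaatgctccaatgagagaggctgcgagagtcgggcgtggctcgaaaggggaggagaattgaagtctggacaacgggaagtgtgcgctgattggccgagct

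The Cdkn1a site lay at -51 to -32 and the Ccng1 site at -195 to -176 from the start, and each had 1 mismatch. Of 32851 windows of all genes, 0.0883% hold a full site with at most 1 mismatch, and 0.00913% an exact one. The second annotated start of Cdkn1a had 5 mismatches at best. Aen and Trp53 came next with 3 mismatches, a closeness reached by 6.29% of all windows.
Aen, chr7:78895937-78895956, plus strand: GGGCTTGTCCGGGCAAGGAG
Trp53, chr11:69580284-69580303, plus strand: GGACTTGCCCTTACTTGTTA

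The Aen site lay at -121 to -102 from its second annotated start and the Trp53 site at -75 to -56. Best matches had 5 mismatches in the windows of Mdm2 and Phlda3 and 6 in that of Eda2r. At most 5 mismatches occur in 76.6% of windows. An exact 10-base unit stood in a window of 5 of the 7 genes, Cdkn1a, Ccng1, Aen, Trp53 and Mdm2, and in 8.36% of all windows. The core of the interferon-stimulated response element, searched as GAAA, any 2 bases, GAAA on both strands without regard to overlap with p53 sites, was in no window of the 7 genes and in 3.44% of all windows. A match describes letters in a window and not binding, and these windows leave out most of each gene's regulatory sequence.

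**Figure D1:**
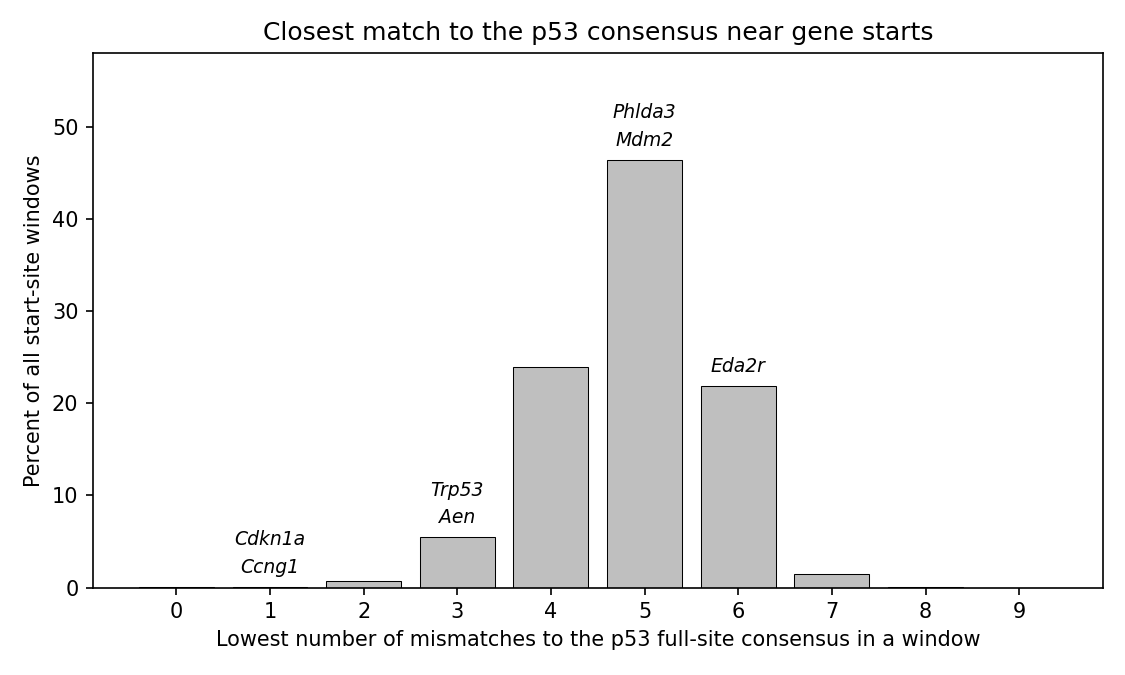
Lowest number of mismatches to the p53 full-site consensus in a start-site window (x axis) against the percent of all 32851 windows (y axis, bars), with the 7 genes that have a window written above the bar of their best match. Cdkn1a and Ccng1 stand at 1 mismatch, where almost no window lies, and Eda2r stands at 6.

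Members tied to cell death and survival moved in both directions. Eda2r (ENSMUSG00000034457, chromosome X, 97333840 to 97377216, minus strand) encodes a receptor of the tumour necrosis factor receptor family that binds the A2 form of ectodysplasin A. It had 8, 12 and 5 counts in Ctrl and 136, 116 and 74 counts in IRF3-2D liver. As a level this was 0.65, 1.01 and 0.39 CPM against 8.80, 7.86 and 4.85 CPM, with no overlap. The rise was 10.4-fold (log2 fold change 3.38, SE 0.44, adjusted p = 0.00197), which ranked 82 among the 10802 tested genes from the highest. Its Ctrl counts are low, so the size of the fold is less certain than its direction, and the log2 value ran from 3.09 to 3.84 over the 14 other settings tried.

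Phlda3 (ENSMUSG00000041801, chromosome 1, 135766119 to 135769136, plus strand), whose product restrains the survival kinase Akt, stood at 1.06, 1.85 and 2.50 CPM in Ctrl and 8.34, 6.17 and 5.51 CPM in IRF3-2D liver. It rose 3.68-fold (log2 fold change 1.88, SE 0.38, adjusted p = 0.0111), and the lowest IRF3-2D library was above the highest Ctrl library. Trp53inp1 (ENSMUSG00000028211, chromosome 4, 11156431 to 11174379, plus strand) encodes a stress protein of apoptosis and autophagy. Its levels spread widely within both groups, from 45.1 to 83.9 CPM in Ctrl (60.5 in replicate 2) and from 166.4 to 279 CPM in IRF3-2D liver (201.3 in replicate 1), without overlap. The rise was 3.41-fold (log2 fold change 1.77, SE 0.27, adjusted p = 0.00367). Aen (ENSMUSG00000030609, chromosome 7, 78895854 to 78911209, plus strand), an exonuclease that degrades DNA in apoptosis, was at 20.99, 22.6 and 15.8 CPM in Ctrl and 47.4, 40.2 and 38.0 CPM in IRF3-2D liver. It rose 2.12-fold (log2 fold change 1.08, SE 0.16, adjusted p = 0.00302), and here too the groups were apart.

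Perp (ENSMUSG00000019851, chromosome 10, 18845020 to 18857073, plus strand) was the member that moved the other way. It encodes a membrane protein known both as an effector of p53 in apoptosis and as a part of desmosomes, the junctions that hold epithelial cells together. It stood at 108.6, 123.3 and 133.6 CPM in Ctrl and 33.1, 40.4 and 36.1 CPM in IRF3-2D liver, groups far apart against the spread within each. The log2 fold change was -1.74 (SE 0.11, adjusted p = 0.000121), and it ranked 281 of all tested genes from the lowest. Perp has 1 annotated transcript, and 0% of its 31-base sequence words occur in another gene.

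Trp53 (ENSMUSG00000059552, chromosome 11, 69580359 to 69591873, plus strand) was at 25.4, 12.7 and 15.3 CPM in Ctrl and 25.7, 28.3 and 25.2 CPM in IRF3-2D liver. Ctrl replicate 1 lay within the IRF3-2D range, so the groups overlapped. The log2 fold change of 0.57 (SE 0.25) did not pass the test (adjusted p = 0.136). Without Ctrl replicate 1 it was 0.91 and passed (adjusted p = 0.00615), and with library totals in place of TMM it was 1.01 and passed (adjusted p = 0.0174). Over all 14 settings the adjusted p ran from 0.00615 to 0.305. Of its sequence words 10.1% also occur in other genes, the highest share among the 10 members, so part of its count could be split with them.

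Mdm2 (ENSMUSG00000020184, chromosome 10, 117688875 to 117710758, minus strand), the ubiquitin ligase that degrades p53, had 83, 73 and 18 counts in Ctrl and 121, 112 and 151 in IRF3-2D liver. Its levels were 6.78, 6.14 and 1.41 CPM against 7.83, 7.59 and 9.90 CPM. The groups did not overlap, but Ctrl replicate 3 stood far below the other Ctrl libraries. The log2 fold change of 0.82 (SE 0.51) did not pass the test (adjusted p = 0.283), and without Ctrl replicate 3 it was 0.38 (adjusted p = 0.302). Adjusted p ran from 0.0732 to 0.479 over the 14 settings. Zmat3 (ENSMUSG00000027663, chromosome 3, 32334792 to 32366014, minus strand), which encodes a zinc finger protein that binds RNA, had 0 counts in 5 libraries and 2 in IRF3-2D replicate 2. It was not tested, and no fold is given. A count of 0 allows up to 3 counts by counting error (0.202 to 0.249 CPM in a library, by library totals without TMM factors). Whether the table covers every transcript of a gene is not stated, and a listed 0 need not mean that the gene was silent.

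**Figure D2:**
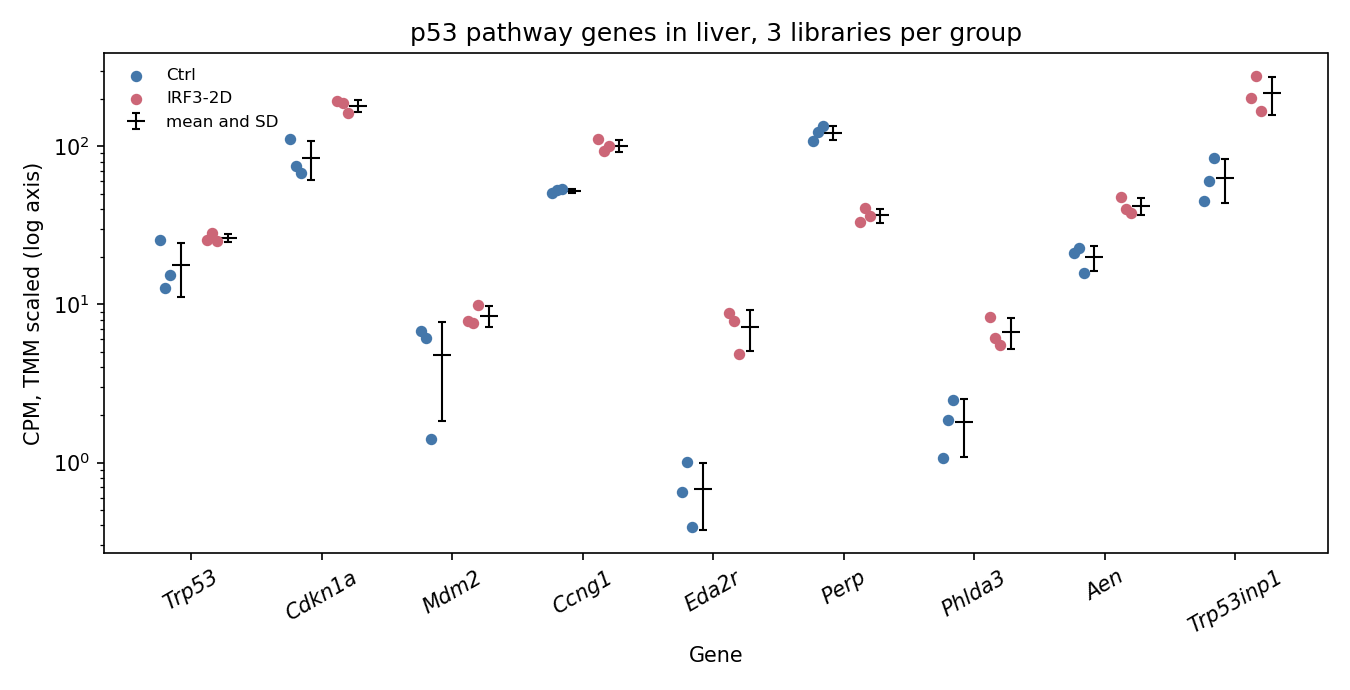
CPM with TMM scaling on a log axis for the 9 tested genes, each point 1 library (blue Ctrl, red IRF3-2D, 3 each) and black bars the mean and SD. The IRF3-2D points lie above all Ctrl points for 7 genes and below them for Perp, while those of Trp53 overlap.

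Compared per kb of annotated exon, so that long and short genes can be set side by side, the order of the genes changed between the groups. In Ctrl liver Perp stood highest, at 62.4 CPM per kb (55.6 to 68.5 over the libraries), above Cdkn1a at 23.8, Ccng1 at 14.9 and Trp53inp1 at 9.75, and the ranges of these 4 did not overlap. The next were Trp53 (4.40 CPM per kb) and Aen (3.41) with overlapping ranges, then likewise Phlda3 (1.16) and Mdm2 (0.94), and Eda2r was lowest at 0.116. In IRF3-2D liver Cdkn1a was highest at 50.8 CPM per kb (45.7 to 54.3), and Perp, at 18.7 (17.0 to 20.7), came after Trp53inp1 (33.3) and Ccng1 (28.7), whose ranges overlapped. Aen (7.22) and Trp53 (6.52) overlapped, Phlda3 stood at 4.28, and the ranges of Mdm2 (1.66) and Eda2r (1.22) met at 1.49. The length is that of all annotated exons, while the transcripts present may be shorter, so neighbouring places in this order are approximate.

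**Figure D3:**
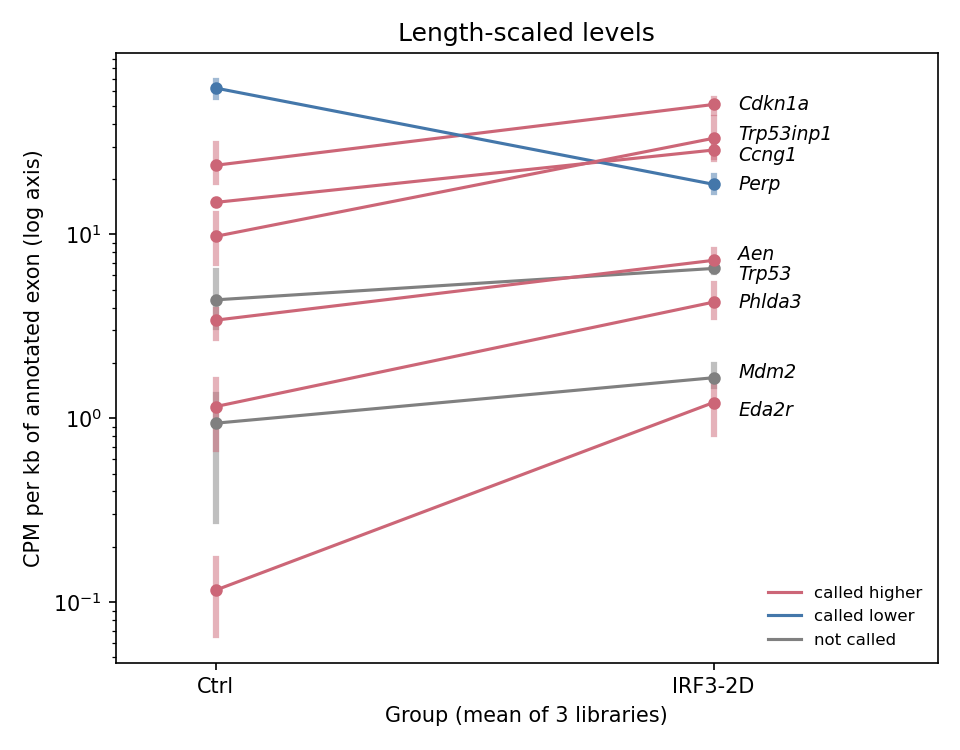
Mean CPM per kb of annotated exon on a log axis in Ctrl and IRF3-2D liver for the 9 tested genes, with thick bars for the range over the 3 libraries of a group and colour for the call. Perp falls from the first place to the fourth and Eda2r rises from 0.116 to 1.22, close to Mdm2.

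The 7 calls held under all 14 other settings, which changed the tool, the scaling, the filter or the replicate term, or left out 1 library at a time. With library totals alone the median log2 fold change of all tested genes moved from 0.03 to 0.49, and that of the 9 members from 1.08 to 1.54. Perp was at -1.28 in that setting, still lower and called. Phlda3 came closest to losing its call, with an adjusted p of up to 0.0484.

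**Figure D4:**
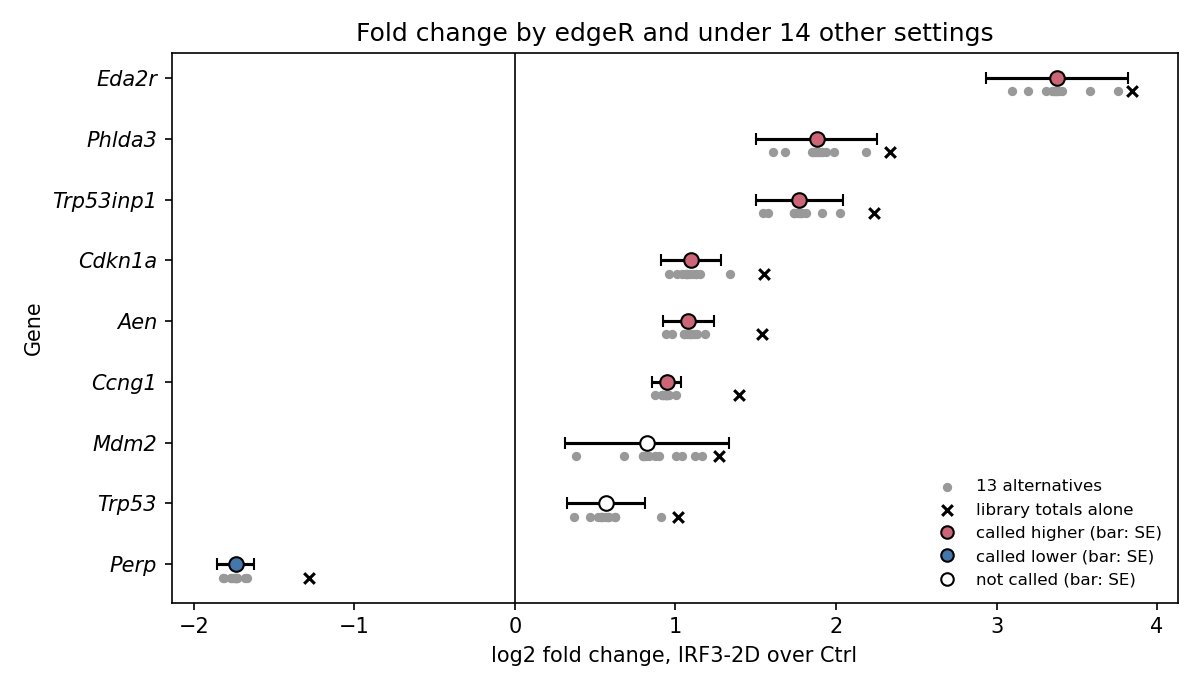
Log2 fold change of IRF3-2D over Ctrl for each tested gene by edgeR (large points, bars SE, filled where called) with 13 alternatives (grey points) and library totals alone (crosses) below it. Values of the 6 genes called higher start at 0.87, and those of Perp run from -1.82 to -1.28.

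Of other genes known as p53 targets, most had no call. Of 37 such genes in 4 lists, 28 were tested, 7 were called higher and 1 lower, with a median log2 fold change of 0.40. The 8 calls among 28 genes are a share near the 26.3% of all tested genes that were called. By direction, the 7 higher and 1 lower stand beside 13.2% and 13.1% of all tested genes. Of the 28 log2 fold changes, 23 were positive. With library totals alone 15 were higher, in a setting that called 41.7% of all tested genes higher and 5.29% lower. Among targets that restrain growth, 3 of 10 tested were higher. Btg2, an antiproliferative gene, stood at 84.6, 55.9 and 49.4 CPM in Ctrl and 212.7, 211.8 and 132.3 CPM in IRF3-2D liver (2.93-fold, adjusted p = 0.00528). Gdf15, a stress hormone of the TGF-beta family, rose 2.68-fold (adjusted p = 0.00539). Psrc1, a microtubule-binding protein, had 4, 0 and 1 counts in Ctrl and 33, 24 and 20 in IRF3-2D liver (log2 fold change 3.56, SE 0.85, adjusted p = 0.0211). Its call was lost without Ctrl replicate 3 (3.29) or IRF3-2D replicate 1 (3.35) or 2 (3.58).

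Targets of apoptosis, repair and metabolism followed, to be read beside the 13.2% of all tested genes called higher and the 13.1% called lower. Of 7 tested apoptosis genes, Bax, which permeabilises mitochondria, rose 1.77-fold (adjusted p = 0.0144) and the death receptor gene Tnfrsf10b rose 1.89-fold (adjusted p = 0.0394). Bax lost its call without Ctrl replicate 2 (log2 fold change 0.76, adjusted p = 0.0512), and Tnfrsf10b without any 1 library other than Ctrl replicate 1 (0.76 to 1.01). Words that also occur elsewhere made up 11.1% of Bax and 10.8% of Tnfrsf10b. Of 4 tested genes of DNA repair, Ercc5, a nuclease of nucleotide excision repair, rose 1.46-fold (adjusted p = 0.00603). Pcna, the sliding clamp of DNA polymerases, rose 1.68-fold (adjusted p = 0.00141), with 23.3% of its words shared. Of 7 tested metabolic targets only Pank1 was called, an enzyme of coenzyme A synthesis, which fell 2.23-fold from 370.3, 397.5 and 417.3 CPM to 169.2, 169.2 and 193.1 CPM (adjusted p = 0.0003). No gene of that list was called higher, against 1 by DESeq2, 1 by limma-voom, 1 without Ctrl replicate 2 and 3 with library totals alone.

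Genes that act on p53 were called in both directions. Of 23 regulators 16 were tested, 3 were called higher and 5 lower, with a median log2 fold change of 0.14. Over all tested genes 13.2% were called higher and 13.1% lower. Atm, the kinase that activates p53 after DNA breaks, stood at 19.1, 21.2 and 22.0 CPM in Ctrl and 76.9, 83.9 and 73.9 CPM in IRF3-2D liver, a 3.76-fold rise (log2 fold change 1.91, SE 0.09, adjusted p = 4e-05). Trim24, a ubiquitin ligase for p53, rose 2.86-fold (adjusted p = 0.00603). Hipk2, a kinase of p53, fell 1.67-fold (adjusted p = 0.0069), and Usp7, which removes ubiquitin from p53 and Mdm2, fell 1.42-fold (adjusted p = 0.0103). The regulators called lower numbered 3 without Ctrl replicate 3 or IRF3-2D replicate 3 and 2 without IRF3-2D replicate 2. With library totals alone 7 regulators were higher and none lower, where 41.7% of all tested genes were higher and 5.29% lower. The falls of Hipk2 and Usp7 lost their call in that setting (log2 fold change -0.28 for Hipk2 and -0.06 for Usp7). Rpl11, a ribosomal protein gene that every cell uses and named here after its values were seen, had 368, 278 and 144 counts in Ctrl and 168, 0 and 169 in IRF3-2D liver. A 0 in this table can thus stand beside clear counts in the other libraries of a group.

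Partners of p21 and genes of division were examined next, since p21 acts on them. Of 13 tested partners of p21 and genes of the G1 phase, 2 were called higher and 2 lower, close to the 13.2% and 13.1% of all tested genes. With library totals alone 6 were higher, where 41.7% of all tested genes were, and 1 was lower. Ccne1, cyclin E1, stood at 1.39, 1.01 and 2.42 CPM in Ctrl and 16.9, 15.4 and 8.98 CPM in IRF3-2D liver (8.48-fold, adjusted p = 0.00182). Ccnd1, cyclin D1, went from 107.2, 95.6 and 67.5 CPM to 33.4, 35.8 and 22.7 CPM and fell 2.94-fold (adjusted p = 0.00296). The retinoblastoma relative Rbl1 rose 3.70-fold (adjusted p = 0.003). Its relative Rbl2 fell 1.33-fold (adjusted p = 0.00579), a direction that turned with library totals alone (log2 fold change 0.04, adjusted p = 0.716). Of 20 genes of division repressed through p21 and the DREAM complex, 18 had a row and 15 were tested. Ccnb1, not tested, was at 0 in every library. Among the 15, edgeR, DESeq2 and limma-voom each called 0, with 2 higher at an unadjusted p under 0.05. Their median log2 fold change was 0.61, and 13 of the 15 values were positive. By library totals alone 5 of the 15 were called higher, beside 41.7% of all tested genes. Mcm4, of the replicative helicase, had the smallest p of this list (log2 fold change 0.61, SE 0.22, adjusted p = 0.0855).

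Partners of Eda2r and Perp completed the lists. Eda, which encodes the ligand ectodysplasin A, stood at 2.61, 2.02 and 3.05 CPM in Ctrl and 8.09, 8.47 and 7.41 CPM in IRF3-2D liver, a 3.11-fold rise (adjusted p = 0.00354). Its counts do not separate the A2 form, which Eda2r binds, from the other form. Map3k14, a kinase of the noncanonical NF-kappaB pathway, rose 2.38-fold (adjusted p = 0.0126), a call lost without IRF3-2D replicate 2 (log2 fold change 1.19, adjusted p = 0.054). These were 2 of the 4 tested genes of that list, beside 13.2% of all tested genes called higher. Of 4 tested desmosome genes, 1 was called, beside that same 13.2%. This was Dsc2, which rose 1.58-fold (adjusted p = 0.00984) while Perp fell. By library totals alone 3 of the 4 desmosome genes were higher, beside 41.7% of all tested genes.

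**Figure D5:**
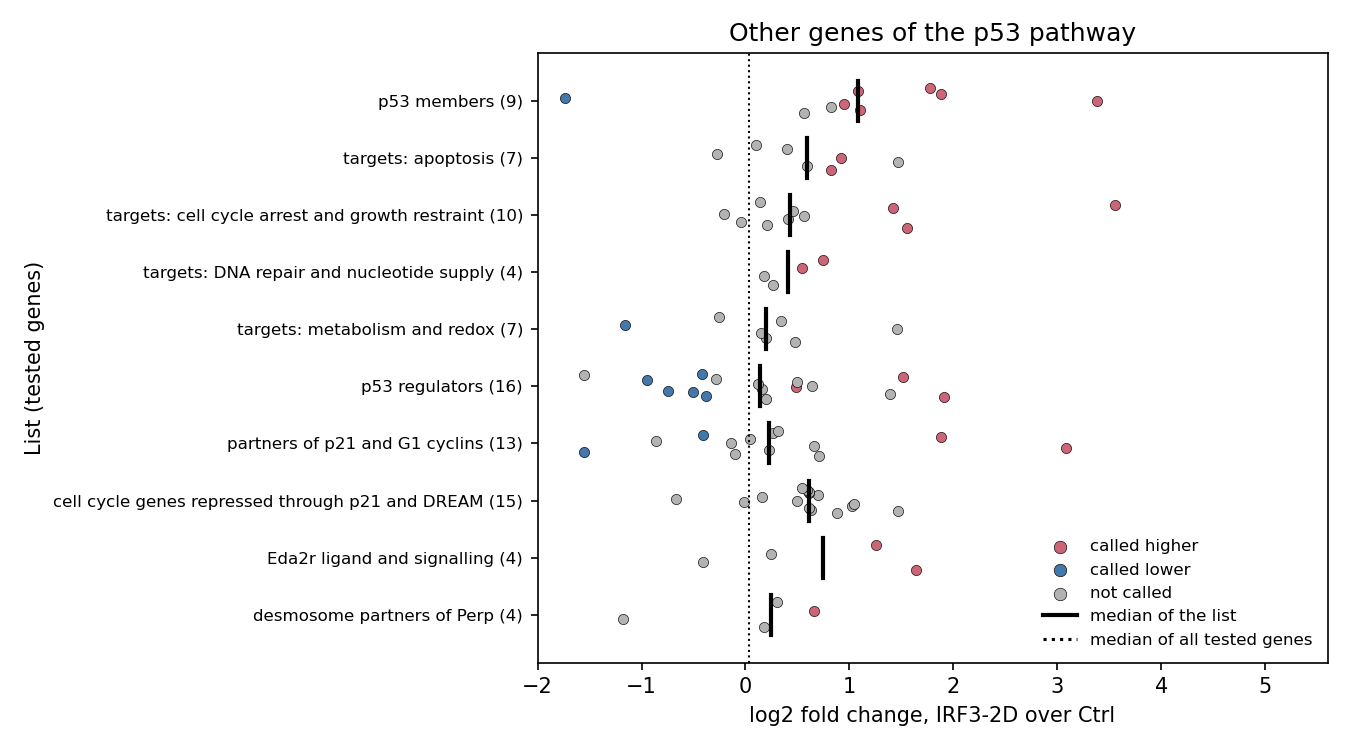
Log2 fold change of IRF3-2D over Ctrl (x axis) for the tested genes of each list (rows, number of genes in brackets), each point 1 gene coloured by its call, with the list's median as a thick bar and the median of all tested genes as a dotted line. Median values run from 0.14 for the regulators to 1.08 for the p53 members.

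Markers of liver cells moved beside these genes. Beside them, 13.2% of all tested genes were called higher and 13.1% lower. Among 10 hepatocyte markers the calls were 7 lower and 1 higher. Alb (albumin) fell 2.34-fold (adjusted p = 0.00138), and Ttr rose 1.79-fold (adjusted p = 0.00452). The sum over the list was 136300 to 188800 CPM in Ctrl and 75750 to 86500 CPM in IRF3-2D libraries. Most of that sum was Alb, at 99840 to 144200 CPM in Ctrl and 46220 to 53510 CPM in IRF3-2D libraries. Of 12 Kupffer cell and macrophage markers 4 were higher, Mpeg1 by 4.14-fold (adjusted p = 0.000595), and 8 were not called. The sum went from 567.6 to 685.1 CPM in Ctrl to 974 to 1324 CPM. A large part of that change was Mpeg1 alone, at 162.6, 109.5 and 103.2 CPM in Ctrl and 560.9, 553.9 and 439.3 CPM in IRF3-2D liver. Cd5l and C1qa of that list lost their calls without most single libraries. C1qa also lost its call in edgeR with RLE scaling (adjusted p = 0.0531) or upper-quartile scaling (adjusted p = 0.0579). Of 8 tested endothelial markers 4 were lower (Kdr, Ehd3, Oit3 and Tie1), at sums of 357.5 to 389.2 and 251.9 to 336.7 CPM. Their calls were all lost with library totals alone. Those of Kdr and Oit3 were also lost without most single libraries, and that of Tie1 without IRF3-2D replicate 2 or 3. Of 6 tested stellate cell markers Reln was lower, a call lost with library totals alone (log2 fold change -0.27, adjusted p = 0.108), with sums of 186.6 to 238.2 and 161.2 to 215.4 CPM. The cholangiocyte markers summed to 16.6 to 35.1 and 13.4 to 22.8 CPM, and those of lymphocytes and neutrophils to 3.37 to 8.25 and 6.53 to 9.96 CPM. In these last lists edgeR called 0 of 5 and 0 of 4 tested genes (at an unadjusted p under 0.05, 1 higher and 1 lower, and 0). DESeq2 called 1 and 0, and limma-voom 0 in both. Spp1 had the smallest p of the cholangiocyte list (log2 fold change 1.69, SE 0.54, adjusted p = 0.0569). It was called higher by DESeq2 (adjusted p = 0.0151). It was also called in edgeR with library totals alone, the filter at a mean count of 50 or the replicate block. The same held without Ctrl replicate 2 or IRF3-2D replicate 3. Pdgfrb (stellate cells) and Cd3g (T cells) were at 0 in every library. The part of these cell types in the p53 results was not tested.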

How the data were processed

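RNA of 6 mouse liver samples (3 Ctrl, 3 IRF3-2D) was sequenced as poly-A RNA, with strand kept, per the labels' protocols. The deposited values are estimated counts per gene, whole numbers and not normalized. The submitters' processing notes name Salmon 1.2.1, GRCm38 and mm10. The annotation and strand setting of the counting are not given in the sources used. Of 20894 rows, 20817 matched a symbol in GENCODE M21. Libraries were mapped to columns by the library name in the labels. No replicate pair agreed within sampling noise (chi-square per degree of freedom 18.9 to 109.7).

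Genes passing filterByExpr at its defaults (10802) were tested with edgeR 4.0.16 (R 4.3.3), quasi-likelihood F-test, TMM scaling, group as the only term, Benjamini-Hochberg threshold 0.05. Each SE is the absolute log2 fold change over the square root of F. The test was tried on simulated data. Alternatives were DESeq2 1.42.0, limma-voom (limma 3.58.1), other scalings and filters, a replicate block and leaving out each library. A floor of 3 counts covers counting error only. Shared sequence words are 31-base words of a gene's GENCODE transcripts that also occur in another gene's.

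The members and lists were chosen with earlier results of these data known. Named genes were all members, up to 4 called genes with the smallest adjusted p per list (the smallest p where none was called) and the nearest tested gene on each side of each called member. No genome was used here, so motifs were searched in RefSeq windows alone. The result for 1 neighbouring gene is not reported here.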

Additional observations from a re-analysis of the deposited data

How the results depend on the processing

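The 7 calls among the p53 genes held in 14 of 14 settings each, and Trp53 gained a call in 2. The count of members called higher was 6 or 7 and of those called lower 1 when single libraries were left out. With library totals alone 5071 of all genes were called, 4500 higher and 571 lower (88.7% of calls higher, against 50.1%), and 15 of the other p53 targets were higher. Leaving out single libraries gave 1771 to 2675 called genes in all, 851 to 1312 higher and 920 to 1363 lower, and 5 to 7 other p53 targets higher. Totals fell by over 1.5 times without IRF3-2D replicate 1 (1821) or 2 (1771). With the replicate block 2166 genes were called and 6 members were higher. Deviations of same-numbered libraries correlated at 0.096, -0.034 and 0.045, and those of differently numbered ones at -0.105 to 0.064. Not every library correlated best with its own number. With 3 libraries per group these values cannot tell whether same-numbered samples were paired. Of 35 other named genes of the lists, 19 kept side and direction in every setting. The log2 fold change of Rbl2 turned from -0.41 to 0.0425 with library totals alone, and the cause was not tested. With an exact p53 full site without a spacer 0 members matched. With a spacer of up to 13 bases and at most 1 mismatch 2 did, Cdkn1a with 0 mismatches and Ccng1 with 1. Such a match was in 1.09% of all windows. Motif searches in wider windows were not run because no genome was used. Zmat3 had too few counts to test, and the Ctrl values of Eda2r, Phlda3 and Psrc1 rest on few counts.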

Other observations

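The genes next to the 7 called members were looked up, as the nearest tested gene on each side. None of these 14 neighbours overlapped its member, and the gaps ran from 13887 to 2664939 bases. Of the 14, 11 were not called, and the calls among the rest are a share near the 26.3% of all tested genes that were called. Ppil1, a peptidyl-prolyl isomerase of the spliceosome that lies 150076 bases beyond Cdkn1a, stood at 5.39, 5.72 and 6.80 CPM in Ctrl and 12.4, 11.3 and 11.5 CPM in IRF3-2D liver (log2 fold change 0.97, SE 0.17, adjusted p = 0.00691). Lad1, which encodes ladinin 1 and lies 49462 bases from Phlda3, went from 13.2, 18.1 and 19.5 CPM to 0.52, 0.14 and 0.72 CPM (log2 fold change -5.17, SE 0.45, adjusted p = 0.00038) while Phlda3 rose. The calls of Ppil1 and Lad1 held in all 14 other settings. Ccne2, cyclin E2, starts 16972 bases beyond Trp53inp1 and was not called (log2 fold change 0.66, SE 0.49, adjusted p = 0.375).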
